A study of Mus musculus with 4 samples.

Results

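Chemokines and their receptors were examined in the hearts of mice with a myocardial infarct and in uninjured mouse hearts. The genes were those of the count table whose symbol is Ccl, Cxcl, Ccr or Cxcr followed by a number, with or without a further letter or number, together with Cx3cl1, Cx3cr1, Xcl1, Xcr1 and Ackr1 to Ackr4. These were 55 of the 21552 genes in the table, 34 ligands and 21 receptors, not counting 2 receptors that are not reported here. The infarcted group was heart tissue of 2 C57BL/6 mice from the remote area, which is myocardium away from the infarct, taken 7 days after the left anterior descending artery had been ligated for good. The uninjured group was heart tissue of 2 C57BL/6 mice that had no infarct, and the names of their libraries carry day 7 as well. The labels do not say whether those mice had a sham operation. The tissue label of all 4 libraries reads remote area. Each library held the polyadenylated RNA of 1 mouse, and neither age nor sex is given in the sources used here.

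Chemokines are small secreted proteins that direct the migration of leukocytes along a gradient held on heparan sulphate, and they signal through G protein-coupled receptors of the Gi class. Their names follow the spacing of the conserved cysteines near the amino terminus (CC, CXC, CX3C and C), while atypical receptors bind chemokines without coupling to G proteins and clear them or carry them across endothelium. In the injured heart, CC ligands are known for the recruitment of monocytes, CXC ligands with an ELR motif for that of neutrophils, and Cxcl12 for the retention and homing of progenitor cells and for effects on cardiomyocytes.

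Library totals ran from 35715115 to 70885393 counts, and the 55 genes together took 517 to 531 CPM (counts scaled to a common library total) in the infarcted libraries and 299 to 319 in the uninjured ones. Levels below are CPM scaled by TMM factors, which correct for differences in library composition. On that scale the difference was smaller. The ligands summed to 385 and 347 CPM in infarcted replicates 1 and 2, against 242 and 280 CPM in uninjured replicates 1 and 2. The receptors summed to 106 and 93.2 CPM in the infarcted libraries and 94.9 and 79.7 CPM in the uninjured ones, which overlap. Macrophage markers summed to 591 and 654 CPM in infarcted replicates 1 and 2, against 269 and 228 CPM in uninjured replicates 1 and 2, and 13 of the 16 in the list were called higher. Of the 10 neutrophil markers, 3 were tested and Csf3r was called higher, the list summed to 8.18 and 17.0 CPM in infarcted replicates 1 and 2, against 3.42 and 2.69 CPM in uninjured replicates 1 and 2, and Ly6g had no read in any library. Cardiomyocyte markers summed to 28893 and 25746 CPM in infarcted replicates 1 and 2, against 42262 and 53223 CPM in uninjured replicates 1 and 2, and 3 of 6 were called lower. Fibroblast markers summed to 4209.5 and 3322 CPM in infarcted replicates 1 and 2, against 682 and 685 CPM in uninjured replicates 1 and 2, and 5 of 8 were called higher. Col1a1 and Postn made up most of the infarcted sums. Col1a1 was at 1883 and 1211 CPM in the infarcted libraries and 76.3 and 82.9 CPM in the uninjured ones. Postn was at 1461 and 819 CPM, against 36.0 and 20.3 CPM. Pdgfra, Dcn and Tcf21 were not called, at log2 fold changes of 0.63, 0.66 and 0.31. Infarcted replicate 2 stood apart in its atrial markers. The list summed to 295 and 2011 CPM in infarcted replicates 1 and 2, against 88.8 and 49.5 CPM in uninjured replicates 1 and 2. Most of each sum was Nppa, at 294 and 1456 CPM in the infarcted libraries and 86.9 and 46.7 CPM in the uninjured ones. Myl4 was at 1.34 and 361 CPM in the infarcted libraries and 1.42 and 2.44 CPM in the uninjured ones. Myl7 was at 0.0800 and 132 CPM in the infarcted libraries and 0.271 and 0.319 CPM in the uninjured ones. Sln, Mybphl and Bmp10 had 0 reads in infarcted replicate 1. The mesothelial sum was also highest there, at 15.0 and 34.8 CPM in infarcted replicates 1 and 2, against 10.6 and 7.23 CPM in uninjured replicates 1 and 2. Wt1 made up most of the sum in infarcted replicate 1. It was at 12.6 and 9.80 CPM in the infarcted libraries and 4.47 and 2.74 CPM in the uninjured ones. Msln, Upk3b, Lrrn4 and Upk1b were highest in infarcted replicate 2. In infarcted replicate 1, Msln, Upk3b and Lrrn4 lay below both uninjured libraries and Upk1b between them. In whole tissue, more cells of a type and more RNA per cell cannot be told apart.

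**Figure D1:**
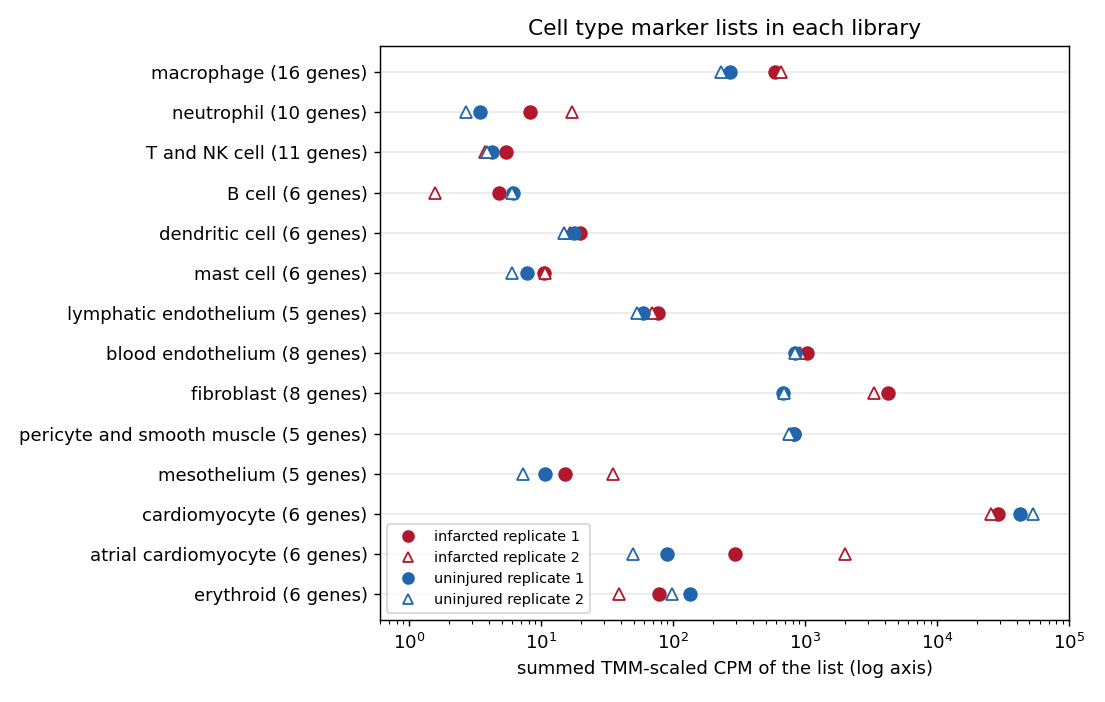
Summed TMM-scaled CPM (log axis) of 14 lists of cell type markers in each library, with circles for replicate 1 and triangles for replicate 2. Macrophage and fibroblast lists lie higher in both infarcted libraries, and the atrial list reaches 2011 CPM in infarcted replicate 2 alone.

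Of the 55 genes, 38 passed the filter on low counts and were tested with edgeR's quasi-likelihood test, adjusted by Benjamini-Hochberg over all 13905 genes tested. Infarction went with higher levels for 18 of them and lower levels for 2 at an adjusted p below 0.05. Over all genes tested, 18.3% were called higher and 14.6% lower. The median log2 fold change of the 38 genes was 1.33, against 0.02 over all genes tested, and 23 had both infarcted libraries above both uninjured ones and 4 had both below, where the shares over all genes were 36.2% and 33.8%. Among ligands 12 of the 26 tested were called higher and 2 lower, and among receptors 6 of the 12 tested were called higher and 0 lower; with an unadjusted p under 0.05 edgeR also found 0 receptors lower, as did DESeq2 at an adjusted p. Ccl19, Ccl22, Cxcl2, Cxcl13 and Ackr1 reached the filter only through the infarcted libraries and so could enter the test only if they were higher there. Ccl22, Cxcl2 and Ackr1 are among the 18. All 5 are among the 23 with both infarcted libraries above, and each lies over the median of 1.33. The filter thus raised both of these figures in part. Of the other 33 tested genes, 15 were called higher. In Ccl3, Ccl4, Ccl5, Cxcl5 and Cxcr6, which are among these 33, only 1 uninjured library reached the filter. They therefore also needed an infarcted library to enter the test, and Cxcl5 and Cxcr6 are among the 15.

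In edgeR the number of calls was lowest without uninjured replicate 2, over all genes (338 higher and 60 lower) as well as here. When it was left out, Ccl8 was the 1 gene that edgeR called higher and 0 of the 38 were called lower. In that fit 16 were higher and 3 lower with an unadjusted p under 0.05, and DESeq2 made 13 calls higher and 1 lower. In DESeq2 the fewest higher calls, 11, came without infarcted replicate 1, and 12 came without infarcted replicate 2. In edgeR without uninjured replicate 2, the median log2 fold change of the 18 genes called higher with all libraries was 1.98. Without uninjured replicate 1, edgeR called 13 higher and 1 lower. The counts were 15 and 2 without infarcted replicate 1, and 21 and 2 without infarcted replicate 2, the library with the high atrial markers. The direction of each of the 20 called genes was the same in all 4 fits that left out a library, which the absence of overlap between the groups fixes in advance. Each of these fits leaves 1 library in a group, so the spread within a gene comes from the other group alone. A smaller adjusted p in such a fit is no sign of a firmer change.

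**Figure D2:**
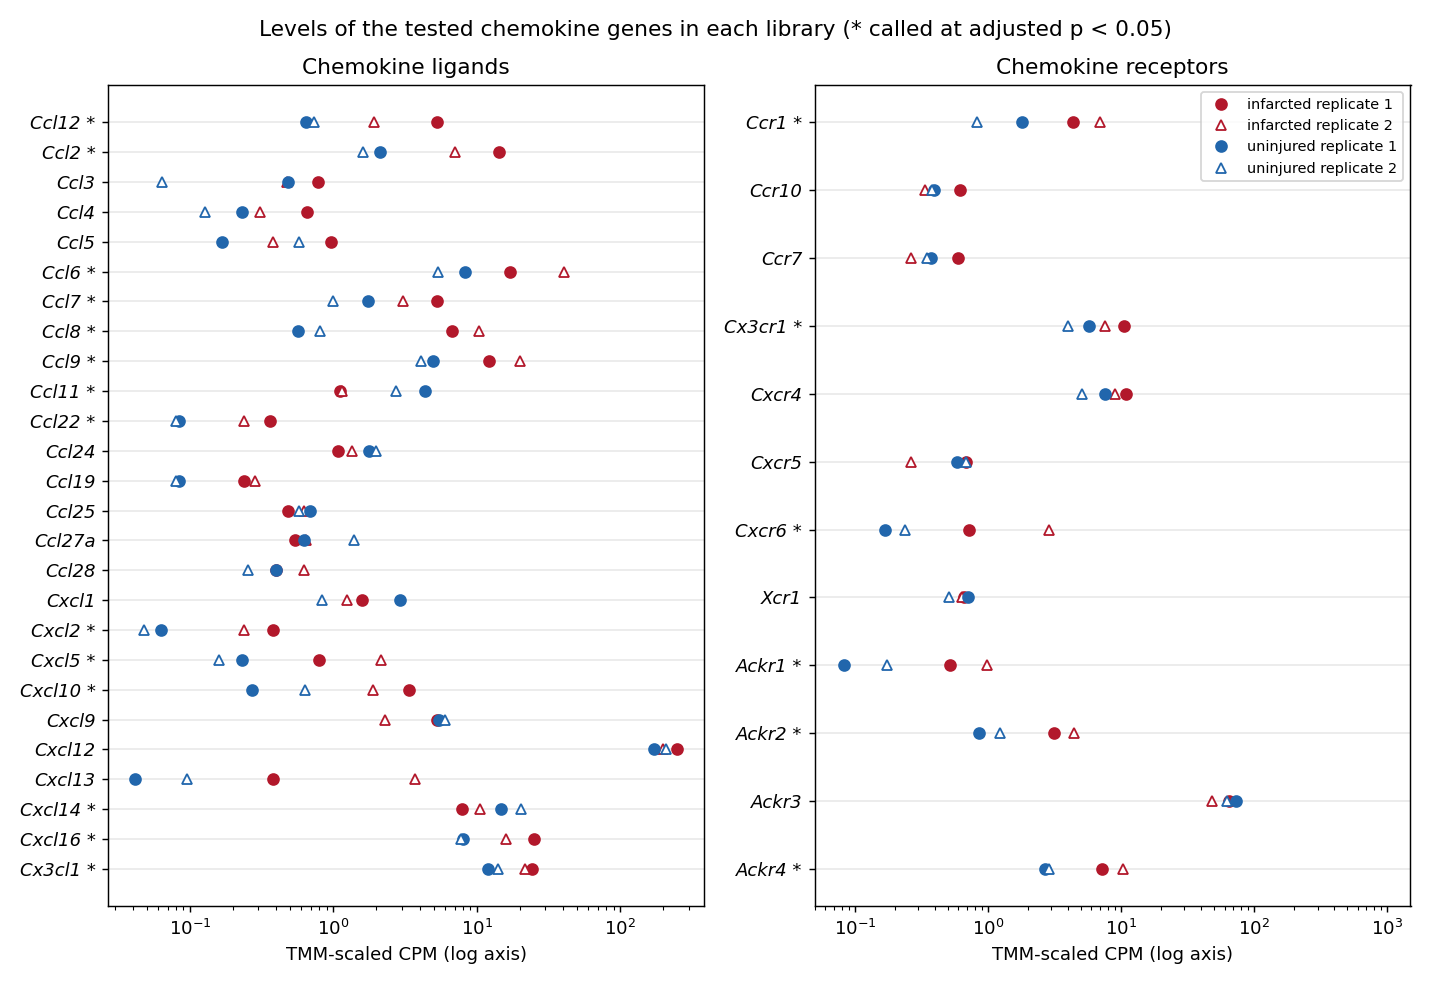
TMM-scaled CPM (log axis) of the 38 tested genes in each of the 4 libraries, ligands on the left and receptors on the right, with an asterisk at those called. The infarcted libraries lie to the right of the uninjured ones for 18 called genes and to the left for Ccl11 and Cxcl14.

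The CC ligands first described in inflammation were the largest set of genes that rose. All 9 were tested and 6 were called higher, the median of the 9 log2 fold changes was 1.83, and their summed level was 63.1 and 83.9 CPM in infarcted replicates 1 and 2, against 19.1 and 14.3 CPM in uninjured replicates 1 and 2. Ccl8, which attracts monocytes and T cells (ENSMUSG00000009185), had 6.70 and 10.3 CPM in infarcted replicates 1 and 2, against 0.564 and 0.812 CPM in uninjured replicates 1 and 2. Both infarcted libraries were thus several times above both uninjured ones, and Ccl8 rose by 3.61 ± 0.33 (log2 ± SE), or 12.2-fold, with an adjusted p of 1.02e-05 in edgeR. Ccl2, the main monocyte attractant released after cardiac injury (ENSMUSG00000035385), averaged 10.7 ± 5.02 CPM in infarcted hearts and 1.86 ± 0.353 CPM in uninjured hearts (SD, n = 2 each). It had 14.2 and 7.10 CPM in infarcted replicates 1 and 2, against 2.11 and 1.61 CPM in uninjured replicates 1 and 2, and rose by 2.52 ± 0.34 on the log2 scale, with an adjusted p of 0.000374 in edgeR. Ccl12, a mouse ligand close to Ccl2, had 5.26 and 1.93 CPM in infarcted replicates 1 and 2, against 0.647 and 0.733 CPM in uninjured replicates 1 and 2, and rose by 2.38 ± 0.46 (adjusted p of 0.00292 in edgeR). Ccl7, a further monocyte attractant, had 5.26 and 3.08 CPM in the infarcted libraries and 1.73 and 0.987 CPM in the uninjured ones, and rose by 1.63 ± 0.37 (adjusted p of 0.00548). The groups did not overlap in any of these 4 genes. In Ccl2, Ccl7 and Ccl12 infarcted replicate 1 was the higher of the infarcted pair, whereas Ccl8 was higher in infarcted replicate 2.

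Ccl6 and Ccl9, myeloid ligands of rodents that signal through Ccr1, had the highest mean CPM of the inflammatory CC genes in infarcted hearts. Ccl6 had 17.1 and 40.4 CPM in infarcted replicates 1 and 2, against 8.23 and 5.37 CPM in uninjured replicates 1 and 2, a rise of 2.08 ± 0.50 on the log2 scale with an adjusted p of 0.0360 in edgeR. Infarcted replicate 2, the library with the high atrial markers and the higher sum of neutrophil markers, was far above infarcted replicate 1. Not all neutrophil markers were higher in it, and the part of atrial cells and neutrophils in this result was not tested. Without infarcted replicate 2 the log2 fold change of Ccl6 was 1.30. Ccl9 was closer between the infarcted mice, at 12.2 and 19.9 CPM in the infarcted libraries and 4.95 and 4.08 CPM in the uninjured ones, and rose by 1.83 ± 0.26 (adjusted p of 0.000314 in edgeR). Ccl3, Ccl4 and Ccl5, made by macrophages and T cells, were low and were not called. Ccl4 had 33 and 13 reads in infarcted replicates 1 and 2, against 11 and 8 in uninjured replicates 1 and 2, with a log2 fold change of 1.47 ± 0.58 and an adjusted p of 0.0683 in edgeR. It was called with the length trend removed and with library totals. Its log2 fold change was 1.88 without infarcted replicate 2 and 0.76 without infarcted replicate 1. Ccl3 and Ccl5 gave 1.27 ± 0.75 and 0.83 ± 0.62, and their infarcted and uninjured libraries overlapped. The log2 fold change of Ccl3 was 1.56 without infarcted replicate 2 and 3.26 without uninjured replicate 1. That of Ccl5 was -0.06 without infarcted replicate 1.

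Leaving out uninjured replicate 2 gave Ccl2, Ccl6, Ccl7, Ccl9 and Ccl12 adjusted p-values of 0.0721 to 0.149 in edgeR, at log2 fold changes of 1.27 to 2.47, and kept Ccl8 called, at 0.0478. With infarcted replicate 1 left out, Ccl2 and Ccl12 had log2 fold changes of 1.87 and 1.41, and Ccl12 was not called without uninjured replicate 1 (adjusted p of 0.0865) nor Ccl6 with the trend by transcript length removed (adjusted p of 0.0539 in edgeR) or with no filter on low counts (0.107).

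Ligands known for eosinophils and type 2 T cells moved in both directions. Ccl11, or eotaxin, which attracts eosinophils through Ccr3 (ENSMUSG00000020676), had 1.12 and 1.14 CPM in infarcted replicates 1 and 2, against 4.34 and 2.76 CPM in uninjured replicates 1 and 2. The infarcted libraries were nearly equal and both lay below the uninjured ones, and Ccl11 fell by 1.64 ± 0.34 on the log2 scale, or 3.12-fold, with an adjusted p of 0.00307 in edgeR. Ccl22, a ligand of Ccr4 made by dendritic cells and macrophages, was called higher on few reads, with 18 and 10 reads in infarcted replicates 1 and 2, against 4 and 5 in uninjured replicates 1 and 2, a log2 fold change of 1.86 ± 0.63 and an adjusted p of 0.0371 in edgeR. DESeq2 gave Ccl22 an adjusted p of 0.259 and limma-voom 0.0507. Ccl24, a further eosinophil attractant, was not called at -0.62 ± 0.35, although both infarcted libraries lay below both uninjured ones. Ccl17 had 4 and 10 reads in infarcted replicates 1 and 2, against 1 and 1 in uninjured replicates 1 and 2, too few to be tested. Ccl1 and Ccl26 had no read in any library, which allows at most 3 reads, or 0.0478 to 0.0715 CPM depending on the library, by counting error alone. Without uninjured replicate 1 the fall of Ccl11 was no longer called (adjusted p of 0.0601, log2 fold change of -1.28), nor was it without uninjured replicate 2 (0.0560 and -1.94). Ccl22 was called in 1 of the 4 edgeR fits that left out a library, with a log2 fold change of 2.09 with infarcted replicate 2 left out and adjusted p-values of 0.207, 0.124 and 0.196 without infarcted replicate 1, uninjured replicate 1 and uninjured replicate 2.

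Ccl11 lies among the ligands that rose. In the GENCODE M21 annotation on GRCm38, Ccl2 (chr11:82035571-82037453), Ccl7, Ccl11 (chr11:82057823-82062955), Ccl12 and Ccl8 (chr11:82115185-82116799) follow each other on the plus strand of chromosome 11, with Ccl1 beyond them. Along that stretch Ccl2, Ccl7, Ccl12 and Ccl8 were called higher and Ccl11, in the middle, lower. A second stretch on the same chromosome holds Ccl5, Ccl9, Ccl6, Ccl3 and Ccl4, and all 5 had positive log2 fold changes, from 0.83 for Ccl5 to 2.08 for Ccl6, with Ccl6 and Ccl9, which are adjacent there, called. On chromosome 5, Cxcl5 and Cxcl2 were called higher at either end of a run in which Cxcl3 and Cxcl15 had too few reads and Cxcl1 was not called. On chromosome 9, Cxcr6 and Ccr1 were called higher, while Xcr1, between Cxcr6 and Ccr1, was not called, at 0.10 ± 0.44.

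**Figure D3:**
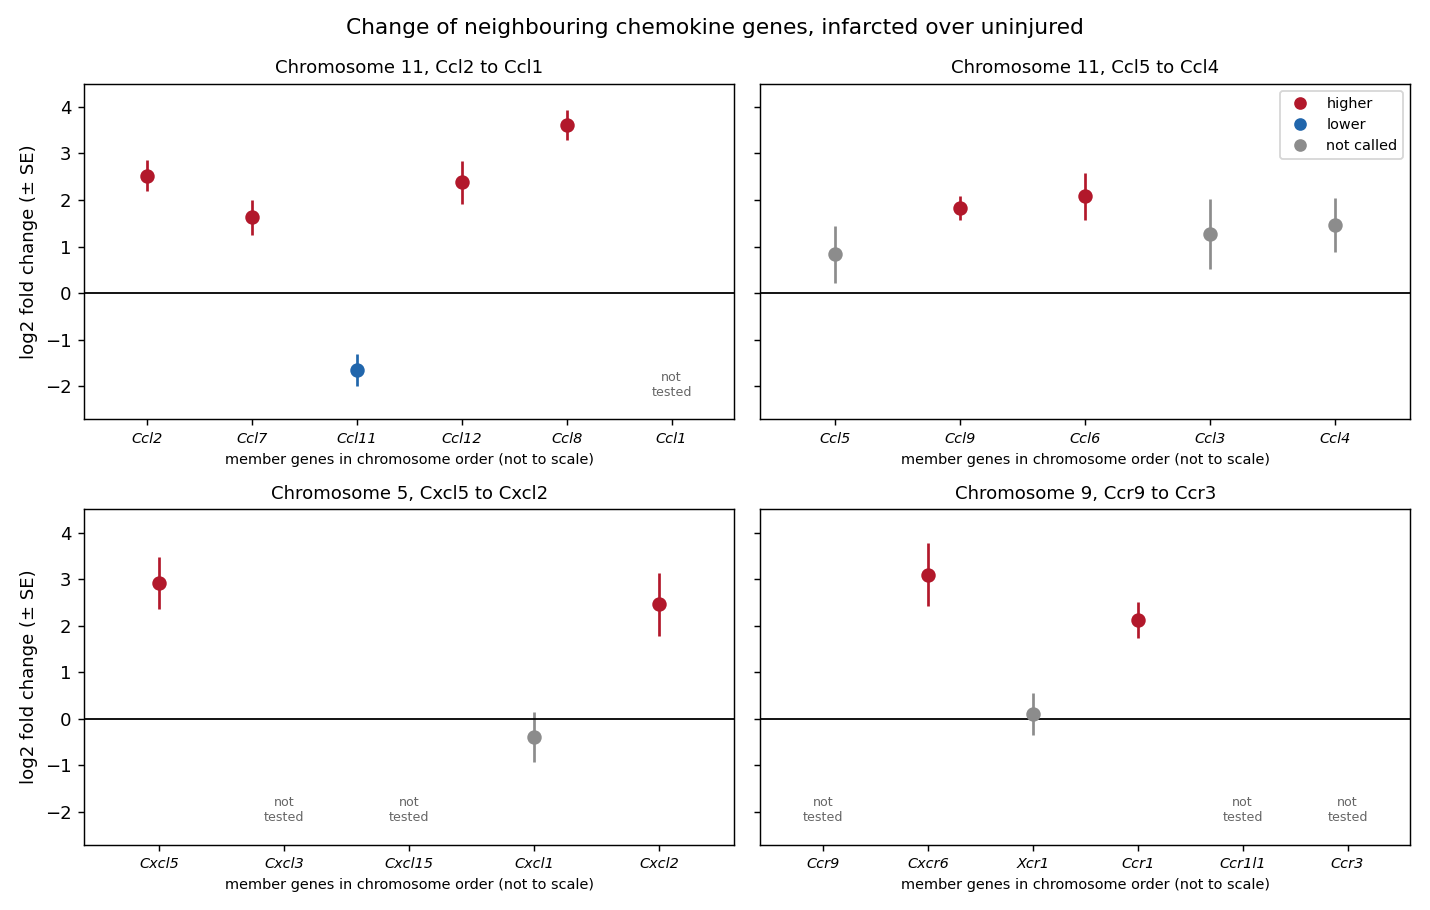
Log2 fold change (± SE, infarcted over uninjured, edgeR, n = 2 per group) of neighbouring chemokine genes in chromosome order, members only and not to scale, for 4 groups of neighbours. Ccl11, at -1.64, is the 1 gene below 0 among the tested genes of the first group, whose other 4 lie between 1.63 and 3.61.

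The 250 bases before the start of 4 of these CC ligands are shown because Ccl12 and Ccl8 are neighbours that rose together, as are Ccl9 and Ccl6. They are RefSeq sequences of GRCm38.p6, 5′ to 3′ on the strand of the gene, from chr11:82101595-82101844 (plus), chr11:82114935-82115184 (plus), chr11:83578637-83578886 (minus) and chr11:83593088-83593337 (minus). Capitals mark matches, on either strand, to the TATA box TATAAA, the AP-1 motif TGANTCA, the interferon-stimulated response element (GAAA, a gap of 2 bases, GAAA) or the NF-κB consensus.
Ccl12: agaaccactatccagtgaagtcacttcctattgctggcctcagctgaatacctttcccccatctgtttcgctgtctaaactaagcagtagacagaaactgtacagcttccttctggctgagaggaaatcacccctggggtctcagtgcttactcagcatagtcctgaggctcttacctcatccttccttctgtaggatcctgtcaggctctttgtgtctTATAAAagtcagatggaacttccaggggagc
Ccl8: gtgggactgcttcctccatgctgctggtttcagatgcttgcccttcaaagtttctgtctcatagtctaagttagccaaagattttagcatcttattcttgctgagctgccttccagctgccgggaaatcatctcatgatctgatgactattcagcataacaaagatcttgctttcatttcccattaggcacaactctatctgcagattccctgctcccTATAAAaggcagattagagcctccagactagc
Ccl9: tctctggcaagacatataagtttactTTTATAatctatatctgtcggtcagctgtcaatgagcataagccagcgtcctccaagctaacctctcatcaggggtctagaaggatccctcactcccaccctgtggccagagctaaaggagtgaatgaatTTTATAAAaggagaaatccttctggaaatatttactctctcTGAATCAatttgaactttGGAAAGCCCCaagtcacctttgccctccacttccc
Ccl6: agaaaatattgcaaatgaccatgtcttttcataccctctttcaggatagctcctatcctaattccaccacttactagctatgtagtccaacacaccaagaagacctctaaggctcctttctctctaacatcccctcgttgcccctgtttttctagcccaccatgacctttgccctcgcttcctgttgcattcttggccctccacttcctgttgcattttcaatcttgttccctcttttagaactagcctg
Ccl12 and Ccl8 each had a single match, a TATA box beginning 31 and 32 bases before the start. Ccl9 held TATA boxes, 2 of which overlap each other, an AP-1 match and an NF-κB match, and Ccl6 held none of the 4 motifs in this window. Over all 32851 promoter entries, 12.4% held TATAAA, 6.75% TGANTCA, 2.98% the interferon element and 7.25% the NF-κB consensus in the same window. Of the 42 chemokine genes with an entry, 14 held TATAAA, 5 TGANTCA, 3 the interferon element and 11 the NF-κB consensus. A gene was counted here if any of its entries matched, whereas the shares are of single entries, so the bases differ. Called higher were 5 of the 11 genes with an NF-κB match, 5 of the 14 with TATAAA, 2 of the 5 with TGANTCA and 1 of the 3 with the interferon element. These counts include genes too low to be tested. They were Ccl1, Ccl20, Ccr3, Ccr6 and Cxcl3 for NF-κB, Ccr1l1, Cxcl15 and Cxcl3 for TATAAA, and Ccr3 and Ccr4 for TGANTCA. Among tested genes only, 18 of the 38 chemokine genes and 18.3% of all genes were called higher, which is a different base. A match describes letters only.

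Ligands known for lymphocyte homing and mucosal surfaces gave 0 calls of 4 tested in edgeR, and Ccl19 alone had an unadjusted p under 0.05. Ccl19, which guides T cells and dendritic cells through Ccr7, had 12 and 12 reads in infarcted replicates 1 and 2, against 4 and 5 in uninjured replicates 1 and 2, with a log2 fold change of 1.66 ± 0.63 and an adjusted p of 0.0596 in edgeR. Ccl28, Ccl25 and Ccl27a gave 0.65 ± 0.51, -0.20 ± 0.45 and -0.78 ± 0.47, and Ccl20 had no read in any library. Ccl27a and Ccl19 have near-identical copies in the mouse genome, so reads of these copies may have been split or lost. T and NK cell markers were sparse as well, at 5.38 and 3.74 CPM in infarcted replicates 1 and 2, against 4.22 and 3.89 CPM in uninjured replicates 1 and 2 in sum, and of 7 tested Il7r was called higher.

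Neutrophil attractants of the CXC class split within the family. Cxcl5, an ELR ligand of Cxcr2 made by epithelial and stromal cells (ENSMUSG00000029371), had 0.800 and 2.15 CPM in infarcted replicates 1 and 2, against 0.230 and 0.159 CPM in uninjured replicates 1 and 2, and rose by 2.91 ± 0.56 on the log2 scale (adjusted p of 0.00220 in edgeR). Cxcl2, made by activated macrophages, had 19 and 10 reads in infarcted replicates 1 and 2, against 3 and 3 in uninjured replicates 1 and 2, and rose by 2.46 ± 0.68 (adjusted p of 0.0139 in edgeR). Its uninjured libraries were at the limit of detection, and DESeq2 did not call it, with an adjusted p of 0.139. Cxcl1, a further member of this list, was not called, at -0.39 ± 0.53. Its uninjured libraries, at 2.90 and 0.828 CPM, enclosed the infarcted ones, at 1.58 and 1.24 CPM, and without uninjured replicate 1 its sign turned, at 0.77. Cxcl3 and Cxcl15 had at most 3 reads in a library. The receptor Cxcr2, through which neutrophils sense these ligands, had 6 and 27 reads in infarcted replicates 1 and 2, against 6 and 3 in uninjured replicates 1 and 2 and was not tested, and Cxcr1 had 1 read in all. Infarcted replicate 2 was highest for Cxcl5, Cxcr2 and the summed neutrophil markers, and the part of neutrophils in the Cxcl5 result was not tested. The markers differed among themselves. Csf3r, S100a8, S100a9, Retnlg and Mpo were higher in infarcted replicate 2 than in infarcted replicate 1. Ngp, Ltf, Camp and Elane were higher in infarcted replicate 1, with Ngp at 16 reads there and 2 in infarcted replicate 2. Without infarcted replicate 2 the log2 fold change of Cxcl5 was 2.02. Cxcl5 and Cxcl2 were not called without uninjured replicate 1 (adjusted p-values of 0.0631 and 0.0772) or without uninjured replicate 2 (0.130 and 0.155), nor was Cxcl2 without infarcted replicate 1 (0.0830).

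The ligands of Cxcr3, which interferons induce and which attract activated T cells, diverged. Cxcl10 (ENSMUSG00000034855) had 3.36 and 1.88 CPM in infarcted replicates 1 and 2, against 0.271 and 0.637 CPM in uninjured replicates 1 and 2. It rose by 2.50 ± 0.47 on the log2 scale, or 5.66-fold, with an adjusted p of 0.00175 in edgeR. Cxcl9 was not called, at -0.59 ± 0.35, with 5.26 and 2.29 CPM in infarcted replicates 1 and 2, against 5.43 and 6.00 CPM in uninjured replicates 1 and 2. Infarcted replicate 2 was the low library there, while infarcted replicate 1 lay just under the uninjured pair. Without infarcted replicate 1, the log2 fold change of Cxcl9 was -1.39. Cxcr3 itself had 19 and 4 reads in infarcted replicates 1 and 2, against 5 and 7 in uninjured replicates 1 and 2, and was not tested. Without uninjured replicate 1 and without uninjured replicate 2, the adjusted p of Cxcl10 was 0.0573 and 0.0634 in edgeR, with log2 fold changes of 2.04 and 3.26.

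Cxcl12 was the most abundant chemokine per length of transcript, and no difference was called for it with TMM factors. This ligand of Cxcr4 and Ackr3 had 249 and 198 CPM in infarcted replicates 1 and 2, against 171 and 209 CPM in uninjured replicates 1 and 2. Infarcted replicate 2 lay between the uninjured libraries, and the log2 fold change was 0.24 ± 0.21, with an adjusted p of 0.429 in edgeR. With library totals as the scale, which moves the median of all genes to 0.36, it was called, at 0.58 (adjusted p of 0.0472), and without infarcted replicate 1 its sign turned, at -0.0015. Divided by exonic length, its level was 27.3 in infarcted hearts and 23.2 in uninjured hearts (mean CPM per kb). By the mean, Ccl8 and Ccl6 came next in infarcted hearts, at 16.6 and 16.0 CPM per kb, where uninjured hearts had 1.35 and 3.79. In infarcted replicate 1, however, Ccl6 lay below Ccl2 and Ccl12, at 9.50 against 12.5 and 9.79 CPM per kb, and it was 22.5 in infarcted replicate 2. Of the summed ligand level per kb, Cxcl12 made up 26.3% and 20.98% in infarcted replicates 1 and 2, against 36.0% and 41.5% in uninjured replicates 1 and 2. For Ccl8 the shares were 11.3% and 17.4% in the infarcted libraries, against 1.90% and 2.58% in the uninjured ones.

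Cxcl16 and Cxcl14, which are also expressed without inflammation, changed in opposite directions. Cxcl16, a membrane-bound ligand of Cxcr6 that also takes up oxidised lipoprotein (ENSMUSG00000018920), had 25.1 and 16.0 CPM in infarcted replicates 1 and 2, against 8.06 and 7.77 CPM in uninjured replicates 1 and 2. It rose by 1.38 ± 0.24 on the log2 scale, or 2.60-fold, with an adjusted p of 0.000965 in edgeR. Cxcl14, a ligand expressed by stromal and epithelial cells (ENSMUSG00000021508), had 7.84 and 10.6 CPM in infarcted replicates 1 and 2, against 14.8 and 20.2 CPM in uninjured replicates 1 and 2. It fell by 0.93 ± 0.23 on the log2 scale, or 1.91-fold, with an adjusted p of 0.00868 in edgeR, and the groups did not overlap. With library totals in place of TMM factors as the scale, the median of all genes moved from 0.02 to 0.36 and Cxcl14 was no longer called, at -0.58 (adjusted p of 0.0774 in edgeR). Cxcl13, the B cell attractant that binds Cxcr5, differed most and least evenly, with 19 and 156 reads in infarcted replicates 1 and 2, against 2 and 6 in uninjured replicates 1 and 2. Its log2 fold change of 4.79 ± 1.55 was not called by edgeR (adjusted p of 0.104), was called by DESeq2 (adjusted p of 4.50e-06), and was 2.35 without infarcted replicate 2. B cell markers had their lowest sum in infarcted replicate 2, where Cxcl13 was highest, at 4.76 and 1.55 CPM in infarcted replicates 1 and 2, against 6.10 and 5.99 CPM in uninjured replicates 1 and 2. Cxcl14 was not called without infarcted replicate 1 (adjusted p of 0.0566, log2 fold change of -0.79) or without uninjured replicate 2 (0.147 and -0.69), and Cxcl16 was not called without uninjured replicate 2 (0.0838 and 1.35).

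The promoters of Cxcl10 and Cxcl14 are shown as the CXC ligands that rose and fell, from chr5:92348890-92349139 and chr13:56296552-56296801, both minus strand, with the same source, window and capitals as above.
Cxcl10: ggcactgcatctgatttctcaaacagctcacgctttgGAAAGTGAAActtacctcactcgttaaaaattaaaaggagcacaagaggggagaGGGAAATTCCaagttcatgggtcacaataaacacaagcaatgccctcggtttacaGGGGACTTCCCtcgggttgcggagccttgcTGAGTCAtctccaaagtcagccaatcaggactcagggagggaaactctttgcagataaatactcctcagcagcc
Cxcl14: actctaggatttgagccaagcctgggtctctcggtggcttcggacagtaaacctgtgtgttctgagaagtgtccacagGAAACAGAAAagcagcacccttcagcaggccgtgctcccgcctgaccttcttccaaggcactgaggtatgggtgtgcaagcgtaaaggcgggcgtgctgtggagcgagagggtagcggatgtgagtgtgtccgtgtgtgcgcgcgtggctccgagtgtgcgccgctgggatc
Cxcl10 held an interferon-stimulated response element beginning 213 bases before the start, NF-κB matches beginning 159 and 104 bases before it, the second in 2 overlapping frames, and an AP-1 match at 74. Cxcl14 held 1 match, to the same interferon element, beginning 172 bases before the start.

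Fractalkine and its receptor both rose. Cx3cl1, a transmembrane ligand shed from endothelium and other cells (ENSMUSG00000031778), had 24.2 and 21.8 CPM in infarcted replicates 1 and 2, against 11.9 and 14.0 CPM in uninjured replicates 1 and 2, and rose by 0.83 ± 0.20 on the log2 scale (adjusted p of 0.00688 in edgeR). Cx3cr1, carried by resident macrophages and patrolling monocytes (ENSMUSG00000052336), had 10.5 and 7.63 CPM in infarcted replicates 1 and 2, against 5.78 and 4.03 CPM in uninjured replicates 1 and 2, and rose by 0.89 ± 0.26 (adjusted p of 0.0188 in edgeR). Both infarcted libraries lay above both uninjured ones for ligand and receptor alike, and these were the smallest log2 fold changes among the 18 genes called higher. Xcl1, with at most 5 reads in a library, was not tested. Neither Cx3cl1 nor Cx3cr1 was called without infarcted replicate 1 (adjusted p-values of 0.0828 and 0.207, log2 fold changes of 0.69 and 0.57) or without uninjured replicate 2 (0.0587 and 0.200, at 0.95 and 0.65).

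**Figure D4:**
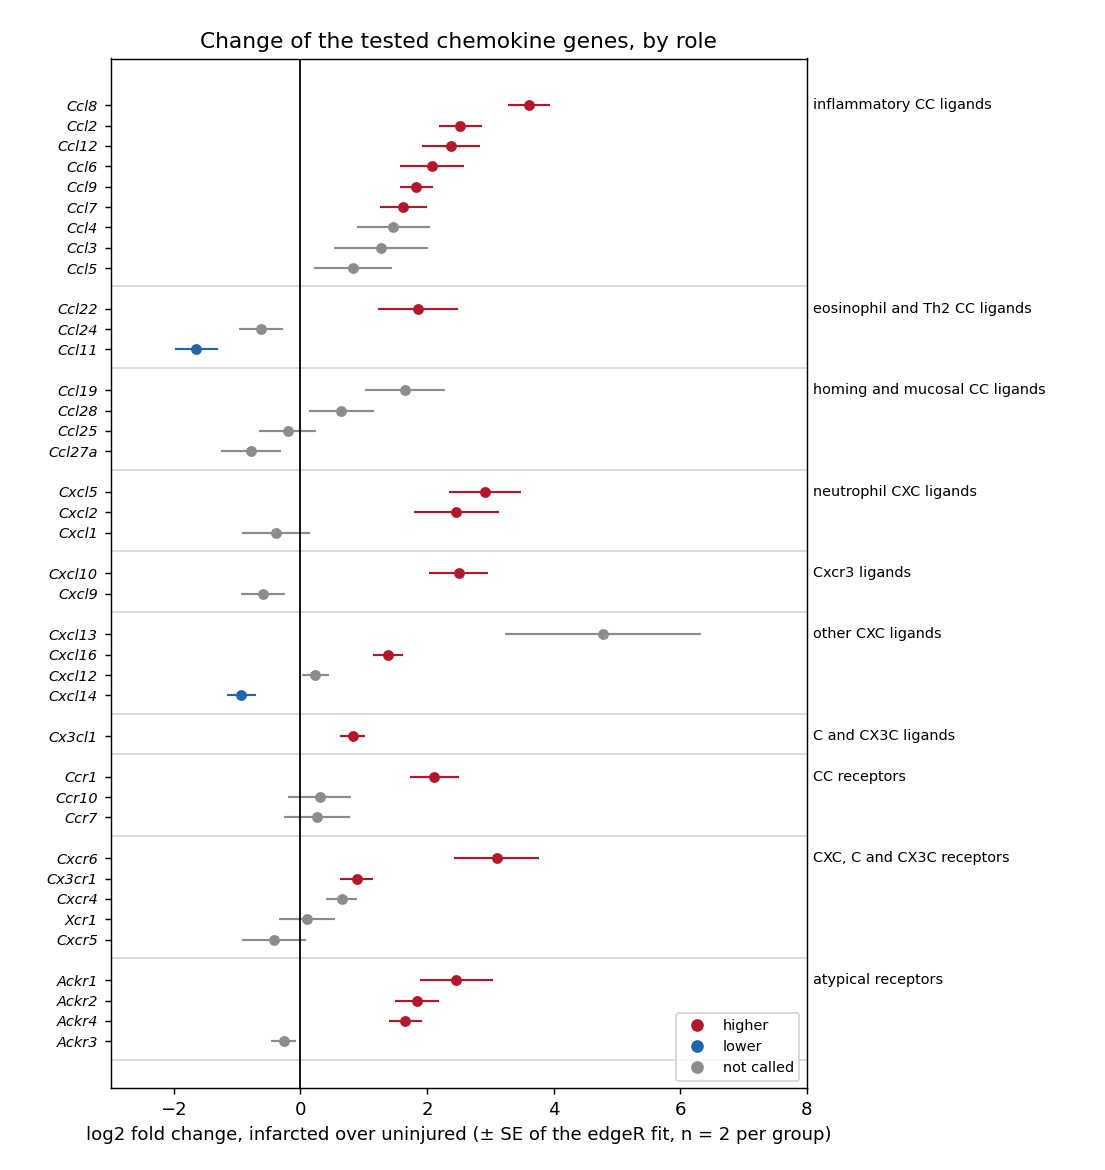
Log2 fold change (± SE, infarcted over uninjured, edgeR, n = 2 per group) of the 38 tested genes, grouped by role and coloured by call. Calls reach from 0.83 for Cx3cl1 to 3.61 for Ccl8 among higher genes, with Ccl11 at -1.64 and Cxcl14 at -0.93 the lower ones.

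Among the CC receptors examined, 3 of 9 were tested, and Ccr1 rose. Ccr1, a receptor of monocytes and neutrophils for Ccl6, Ccl9 and other ligands (ENSMUSG00000025804), had 4.38 and 6.91 CPM in infarcted replicates 1 and 2, against 1.80 and 0.828 CPM in uninjured replicates 1 and 2, a rise of 2.12 ± 0.39 on the log2 scale with an adjusted p of 0.00214 in edgeR. Both infarcted libraries lay above both uninjured ones, and uninjured replicate 2 was the lowest. Ccr7 and Ccr10 were tested and not called, at 0.27 ± 0.52 and 0.30 ± 0.50, their libraries overlapped, and without infarcted replicate 1 both turned, at -0.53 and -0.28. Ccr3, the receptor of Ccl11, had 6 and 5 reads in infarcted replicates 1 and 2, against 0 and 0 in uninjured replicates 1 and 2, and was too low to be tested. Ccr4, Ccr6, Ccr8 and Ccr1l1 had at most 3 reads in a library and Ccr9 at most 11. Ccr1l1 resembles Ccr1 closely, so their reads may have been split. Ccr1 was not called without uninjured replicate 2 (adjusted p of 0.0829, log2 fold change of 1.65), and without uninjured replicate 1 its log2 fold change was 2.76. All but 3 of the 16 macrophage markers were called higher in the same libraries, and their part in this result was not tested.

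Of the CXC, C and CX3C receptors, Cxcr6 rose most. This receptor of Cxcl16, found on T and NK cell subsets (ENSMUSG00000048521), had 0.720 and 2.86 CPM in infarcted replicates 1 and 2, against 0.167 and 0.239 CPM in uninjured replicates 1 and 2. It rose by 3.10 ± 0.67 on the log2 scale, or 8.57-fold, with an adjusted p of 0.00692 in edgeR, and infarcted replicate 2 held about 4 times the level of infarcted replicate 1. The ligand Cxcl16 had the reverse order in the infarcted pair. Cxcr4, the signalling receptor of Cxcl12, had 10.9 and 9.08 CPM in infarcted replicates 1 and 2, against 7.64 and 5.11 CPM in uninjured replicates 1 and 2, which did not overlap but missed the threshold, at 0.65 ± 0.25 with an adjusted p of 0.0586 in edgeR. Xcr1 and Cxcr5, receptors of dendritic cells and of B cells, were not called, at 0.10 ± 0.44 and -0.41 ± 0.51. Without infarcted replicate 2 the log2 fold change of Cxcr6 was 1.77, and without infarcted replicate 1 it was 3.72. Cxcr6 was not called without uninjured replicate 1 or without uninjured replicate 2. Cxcr4 was called without uninjured replicate 1, at 0.97 (adjusted p of 0.0446 in edgeR), with library totals (0.00592), with no filter (0.0415), with a filter of 1 CPM (0.0499) and with the length trend removed (0.0402). Over 18 alternatives its adjusted p ran from 0.00592 to 0.680.

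Atypical receptors were all 4 tested, and 3 rose. Ackr4, which clears Ccl19 and other ligands of Ccr7 (ENSMUSG00000079355), had 7.26 and 10.4 CPM in infarcted replicates 1 and 2, against 2.69 and 2.90 CPM in uninjured replicates 1 and 2, and rose by 1.66 ± 0.26 on the log2 scale (adjusted p of 0.00052 in edgeR). Ackr2, a scavenger of inflammatory CC chemokines known from lymphatic endothelium (ENSMUSG00000044534), had 3.16 and 4.41 CPM in infarcted replicates 1 and 2, against 0.856 and 1.24 CPM in uninjured replicates 1 and 2, and rose by 1.84 ± 0.34 (adjusted p of 0.00162). Ackr1, which carries chemokines across venular endothelium and is also known from red cells, had 26 and 41 reads in infarcted replicates 1 and 2, against 4 and 11 in uninjured replicates 1 and 2. It passed the filter only through the infarcted libraries, and rose by 2.46 ± 0.58 (adjusted p of 0.00587 in edgeR). Erythroid markers summed to 77.4 and 38.9 CPM in infarcted replicates 1 and 2, against 134 and 98.0 CPM in uninjured replicates 1 and 2. Of 6 such markers, 4 were called lower and 1 higher, and the part of red cells was not tested. The groups did not overlap in Ackr1, Ackr2 or Ackr4, and infarcted replicate 2 was the highest library for each of these genes. Ackr3, the scavenger of Cxcl12, was not called. It had 65.3 and 48.3 CPM in infarcted replicates 1 and 2, against 73.3 and 63.1 CPM in uninjured replicates 1 and 2, with a log2 fold change of -0.26 ± 0.20, or 0.08 with library totals as the scale. Per kb of transcript Ackr3 was the most abundant receptor, at 17.0 in infarcted hearts and 20.4 in uninjured hearts (mean CPM per kb), and Cxcr4 the next, at 5.54 in infarcted hearts and 3.53 in uninjured hearts. Lymphatic endothelial markers summed to 76.4 and 69.0 CPM in infarcted replicates 1 and 2, against 58.5 and 52.6 CPM in uninjured replicates 1 and 2, with Flt4 and Pdpn called higher of 5 and Mmrn1 at 0 reads in infarcted replicate 2, and blood endothelial markers to 1038 and 911 CPM in infarcted replicates 1 and 2, against 835 and 832 CPM in uninjured replicates 1 and 2, with 0 of 8 called by edgeR and 3 higher and 1 lower with an unadjusted p under 0.05; their part in these results was not tested. Ackr1, Ackr2 and Ackr4 were not called without uninjured replicate 2 (adjusted p-values of 0.0907, 0.0634 and 0.0632, log2 fold changes of 1.71 to 3.12), nor Ackr1 without uninjured replicate 1 (0.0923).

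**Figure D5:**
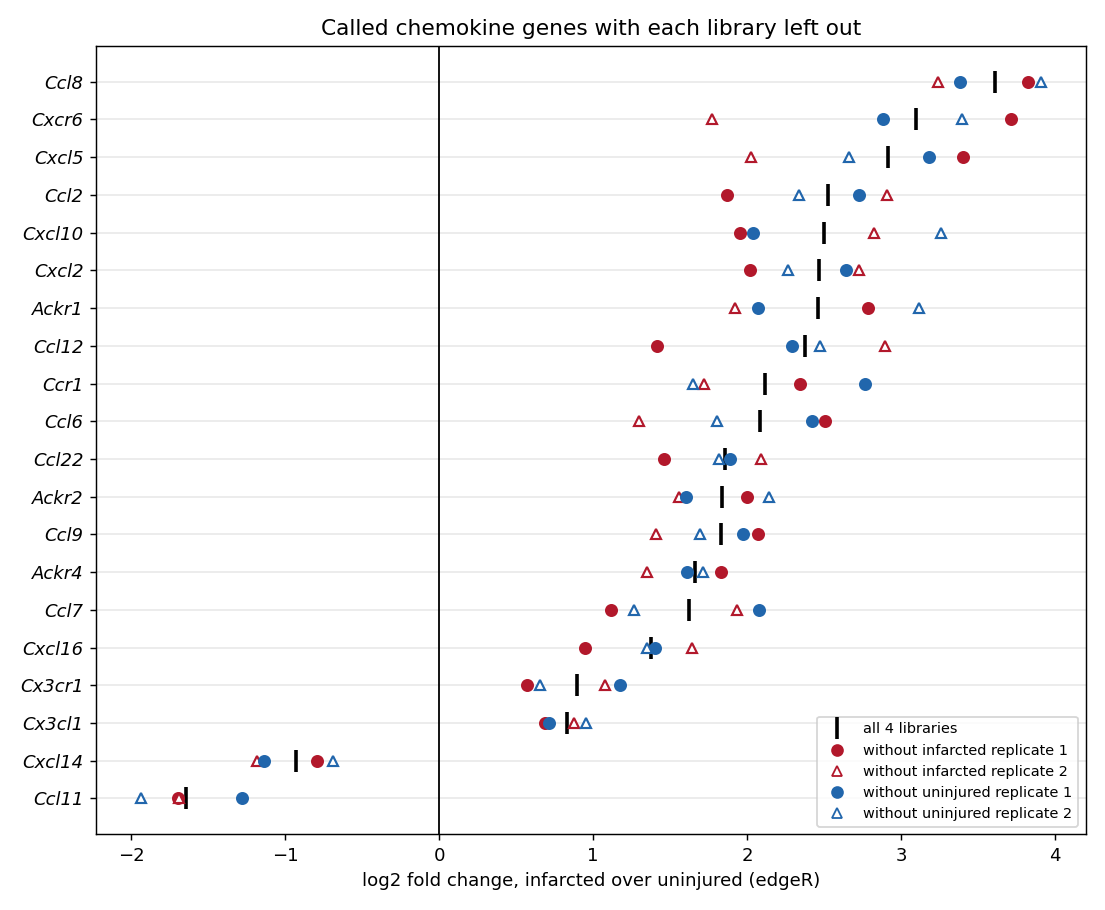
Log2 fold change (infarcted over uninjured, edgeR) of the 20 called genes with all 4 libraries (black bar) and with each library left out. Cxcr6 ranges most among the called genes, from 1.77 without infarcted replicate 2 to 3.72 without infarcted replicate 1.

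Set side by side, ligands and receptors of a pair did not always move together. Both partners were called higher for Cxcl16 and Cxcr6 and for Cx3cl1 and Cx3cr1, as were Ccl6, Ccl9 and their receptor Ccr1. Neither Cxcl12 nor Cxcr4 nor Ackr3 was called. Cxcl10 was called while Cxcr3 had at most 19 reads in a library. Ccl11 was called lower while Ccr3 had reads in the infarcted libraries only.

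The genes that act with chemokine receptors moved upward where they moved. Of 58 signalling genes tested, edgeR called 33 higher and 0 lower (35 and 0 with an unadjusted p under 0.05), and their median log2 difference was 0.88; 18.3% of all tested genes were called higher and 14.6% lower. The macrophage markers, 13 of 16 of them called higher, moved with the group, and their part in it was not tested. The group included the leukocyte integrin subunit Itgb2, at 2.30 ± 0.23, the PI3-kinase gamma adaptor Pik3r5, at 2.77 ± 0.28, and the adenylyl cyclase Adcy7, at 2.22 ± 0.24, with adjusted p-values of 2.10e-05, 2.10e-05 and 4.24e-05 in edgeR. Of 14 tested genes that cleave chemokines or present them on heparan sulphate, edgeR called 9 higher and 0 lower (11 and 0 with an unadjusted p under 0.05), including Mmp14, at 2.14 ± 0.19, Mmp12, at 3.75 ± 0.37, and the syndecan Sdc1, at 1.70 ± 0.22. Of 9 chemokine-like genes outside the symbol rule, Cmtm3 was called higher, at 0.99 ± 0.19, and Ccrl2, which holds chemerin on the cell surface, lower, at -0.77 ± 0.22.

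Exon use within the chemokine genes was measured for 38 events, of which 13 in 5 genes had at least 10 reads in every library. Of these, 11 were at most 5% or at least 95% included in all 4 libraries. In Cx3cl1 an exon of 121 bases (chr8:97301928-97302048, mm9) was included at 100% and 95.5% in infarcted replicates 1 and 2, against 83.3% and 100% in uninjured replicates 1 and 2. The value of 83.3% rested on 11 reads, with a 95% Wilson interval of 52.3% to 94.9% that covers counting error only. In Cxcl16 an exon of 70 bases (chr11:70271578-70271647, mm9) was included at 2.79% and 9.52% in the infarcted libraries, against 8.70% and 5.0% in the uninjured ones. The groups overlapped in both events.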

How the data were processed

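Total RNA of heart tissue was purified with a Qiagen kit, and polyA libraries gave single-end reads of 50 bp on an Illumina GAII, per the labels' protocols. The authors deposited raw counts per Ensembl gene for 21552 genes, not normalized, and, for splicing events, the percent inclusion in each library with corrected reads. The build is mm9, per the submitters' processing notes; the aligner, the counter, the annotation release and strandedness are not stated in these sources. Overlapping antisense genes therefore cannot be told apart. Column names were matched to the titles in the labels.

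Symbols, positions and exonic lengths came from GENCODE M21 (GRCm38), which matched 20463 genes. Counts were tested in edgeR 4.0.16 under R 4.3.3 with TMM factors, filterByExpr by group (a count of about 10 in at least 2 libraries), robust estimation and quasi-likelihood testing of 13905 genes, with calls at a Benjamini-Hochberg adjusted p below 0.05. With 2 mice a group, 2 residual degrees of freedom remain, and the spread is shared across genes (common biological coefficient of variation 19.3%). The SE of a log2 fold change is its size over the square root of F. The fit was checked on simulated data. CPM per kb divides CPM by exonic length. Motif searches covered both strands of the RefSeq promoter windows. Genes called, with an unadjusted p below 0.05 or averaging at least 5 CPM are given with their values in each library, other tested genes within their role and genes under the filter by their reads; Cxcl1 and Cxcl9 were singled out after their values were seen. Alternatives were other scale factors and filters, DESeq2 1.42.0, limma-voom (limma 3.58.1), the replicate number as a block, mitochondrial genes left out, removal of the trend with transcript length, and leaving out each library. The genes and lists were chosen with earlier results of these data known. The labels name no batch, and p-values measure the spread between these 4 mice. Depth was 35715115 to 70885393 counts, and a count of 0 allows up to 3 reads.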

Additional observations from a re-analysis of the deposited data

How the results depend on the processing

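With other scale factors (RLE or upper quartile), without mitochondrial genes, with the length trend removed, with no filter, with a filter of 1 CPM in 2 libraries, in limma-voom and in DESeq2, 14 to 20 chemokine genes were called higher and 2 lower, against 18 and 2. Library totals as the scale gave 22 higher and 1 lower among chemokine genes and 4386 higher and 786 lower among all genes, where TMM gave 2546 and 2037. The replicate numbers are not said to pair the mice, and deviations of same-numbered mice correlated at 0.108. With the replicate number as a block 23 chemokine genes were called higher and 3 lower, and no called gene lost its call. Cxcr4 and Ccl4 were then called too, with adjusted p-values of 0.0196 and 0.0372 in edgeR. The block leaves fewer residual degrees of freedom, and some p-values became far smaller. For Ccl8 the unadjusted p in edgeR was 4.64e-30 with the block and 4.75e-08 without it. The calls kept with the block are therefore no measure of how firm they are. Leaving out 1 library gave 1 to 21 chemokine genes higher and 0 to 2 lower, and 338 to 2100 genes higher and 60 to 1903 lower among all genes; the lowest values were those without uninjured replicate 2, where 16 chemokine genes were higher and 3 lower at an unadjusted p below 0.05. DESeq2 with 1 library left out, of which 3 of the 4 fits were added after the data were seen, gave 11 to 15 chemokine genes higher and 1 to 2 lower, and among all genes 1376 higher and 1136 lower without infarcted replicate 1, 1334 and 853 without infarcted replicate 2, 1846 and 1651 without uninjured replicate 1, and 1173 and 571 without uninjured replicate 2. In these fits the lone library of a group is assumed to vary like the others. Of the 38 tested genes, 9 turned sign in at least 1 alternative, none of them among the 20 called genes. With library totals these were Ccl25, at 0.15043, and Ackr3, at 0.0751. With 1 library left out the log2 fold change in edgeR ran from -0.06 to 1.9998 for Ccl5, -1.038 to 0.76757 for Cxcl1 (DESeq2 0.75502 without uninjured replicate 1), -0.0015 to 0.3872 for Cxcl12, -0.28437 to 0.64426 for Ccr10 and -0.52751 to 0.69902 for Ccr7 (DESeq2 -0.258 and -0.50461 without infarcted replicate 1), -1.3358 to 0.070153 for Cxcr5 (DESeq2 0.096168 without infarcted replicate 2) and -0.12214 to 0.35376 for Xcr1 (DESeq2 -0.13726 without uninjured replicate 2); the cause was not tested. Genes with few reads, such as Ccl22, Cxcl2 and Ackr1, lost their call most often, Ccl22 in 10 of 17 alternatives. Of the 55 genes, 17 had too few reads for the filter. A 300-base window raised the shares of all promoter entries with a motif to 13.6% (TATAAA), 7.81% (TGANTCA), 3.44% (the interferon element) and 8.46% (NF-κB). By gene, with any entry matching, 14, 8, 3 and 12 of the 42 chemokine genes then held one.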
